A study of Rattus norvegicus with 24 samples.

Results

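The activators of the circadian clock and the nuclear receptors that feed back on them were followed on 24 expression arrays of rat thyroid glands. The 6 genes are Arntl (also called Bmal1), Clock, Npas2, Nr1d1, Nr1d2 and Rora. Members are all non-control probes that carry one of these gene symbols, which gave 9 probes of 30367 for 6 of 26276 gene names, and all 9 are among the 23416 probes bright enough to be tested. Arntl, Clock and Npas2 have 2 probes each, and both probes of a gene are annotated to the same transcript.

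The arrays hold thyroid RNA of RccHan Wistar pups, 1 sample per array, in 6 groups of 4. The groups are acrylamide females at 10 PM, control females at 10 PM, acrylamide males at 10 PM, control males at 10 PM, acrylamide females at 10 AM and control females at 10 AM. Acrylamide is a small electrophile that reacts with protein thiols, and the treated animals drank it at a daily dose of 3 mg per kg of body weight. Dosing began in the dams on gestational day 6 and went on in the pups until postnatal day 35 ± 3. Controls received tap water. The labels give the purpose of the 2 collection times as catching diurnal differences in metabolism. They name no animal behind a replicate number. The p-values here thus cover the spread among the samples, pooled over the 6 groups, which may be partly technical.

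The mammalian clock is a feedback loop of transcription factors. CLOCK, or its close relative NPAS2, pairs with BMAL1, the product of Arntl, and the pair binds E-box sequences and switches on the Per and Cry genes and the genes of the REV-ERB receptors, Nr1d1 and Nr1d2. REV-ERB proteins in turn repress Arntl through ROR response elements, the same elements through which ROR receptors such as RORA activate it, so in many tissues Arntl and the REV-ERB genes peak at opposite times of day.

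The elements that couple the loop were looked up in the promoters of the 6 genes, taken from RefSeq on build GRCr8 as 250 bases before to 50 bases after each start. Both strands were searched for the E-box CACGTG, the related box CACGTT, the ROR response element, its core half-site AGGTCA, and the D-boxes TTATGTAA and TTATGCAA. All 6 genes had a promoter in the RefSeq table, and Clock and Nr1d1 had 2 each. The following stretches carry the matches found, read 5′ to 3′ on the strand of the gene, with the match in capitals.
Arntl, chr1:176766288-176766327, plus strand: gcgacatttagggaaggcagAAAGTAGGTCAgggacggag
Nr1d1 promoter 1, chr10:84231961-84232006, minus strand: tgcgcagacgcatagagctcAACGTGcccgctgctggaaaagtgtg
Nr1d1 promoter 2, chr10:84229620-84229665, minus strand: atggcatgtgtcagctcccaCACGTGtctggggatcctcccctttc
Nr1d2, chr15:9954827-9954872, plus strand: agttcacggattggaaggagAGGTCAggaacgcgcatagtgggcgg

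Arntl held a ROR response element from position -20 to -10 relative to its start, and its last 6 letters are also the match to the half-site. Such an element was found in 0.356% of the 33469 rat promoters of this length, and the half-site alone in 16.2%. The first Nr1d1 promoter held CACGTT on the opposite strand, so that it reads AACGTG here, with its first base at -174. Its second promoter held CACGTG from -191. CACGTT was present in 4.83% of all promoters and CACGTG in 6.42%. Nr1d2 held only the half-site, from -187, and no motif searched was in the windows of Clock, Npas2 or Rora. The D-boxes were in 0.893% and 0.863% of promoters and in none of the 6 genes' windows. These matches describe the letters in the windows, and binding was not measured here.

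The arrays give the probes' own positions on the older build rn4. Arntl is read by A_44_P214873 at chr1:171161969-171162028 and by A_64_P117345 at chr1:171154767-171154826. Clock is read by A_64_P147863 at chr14:34243744-34243803 and A_64_P075337 at chr14:34254357-34254416. The Npas2 probes are A_44_P945456 at chr9:38433884-38433943 and A_64_P024222 at chr9:38417496-38417555. Nr1d1 is read by A_44_P175041 on the minus strand of chromosome 10, within 87543165 to 87543519, and Rora by A_44_P291071 at chr8:73817595-73817654. The position of the Nr1d2 probe, A_44_P395572, is not given in the files. Whether each probe lies in coding sequence or in a UTR was not determined, since no rn4 genome or annotation was used here.

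All levels are on a log2 scale on which 0 is the array's own 75th percentile, so 1 unit is a doubling, and a level is compared between arrays for 1 probe and not between probes. On each array 68.1% to 79.6% of probes were well above background. Every member probe was well above background on all 24 arrays except A_64_P117345 of Arntl, which was on 23 and missed 1 control male. The glands were checked against 11 thyroid follicular markers such as thyroglobulin, whose mean level was 1.52 to 3.03 on all arrays but acrylamide females at 10 AM replicate 1, where it was -3.33. That array also had the lowest parathyroid level (-5.28) and C cell level (-2.86), with an oesophageal epithelium level of 1.65. In the same group replicates 2 and 3 read 1.68 and 1.52 on the thyroid markers, against 2.22 to 2.70 in control females at 10 AM. Acrylamide males replicate 4 had a parathyroid level of -1.74, against 3.48 to 4.02 on the other acrylamide male arrays. Low parathyroid levels were also read on acrylamide females at 10 AM replicate 3 (-2.55), against 2.16 and 2.84 on replicates 2 and 4, and on control females at 10 AM replicate 1 (-0.72), against 2.32 to 2.49 on the other 3. The median SD over probes was 0.455 in acrylamide females and 0.249 in control females at 10 AM, 0.232 in acrylamide females and 0.178 in control females at 10 PM, and 0.398 in acrylamide males and 0.254 in control males.

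**Figure D1:**
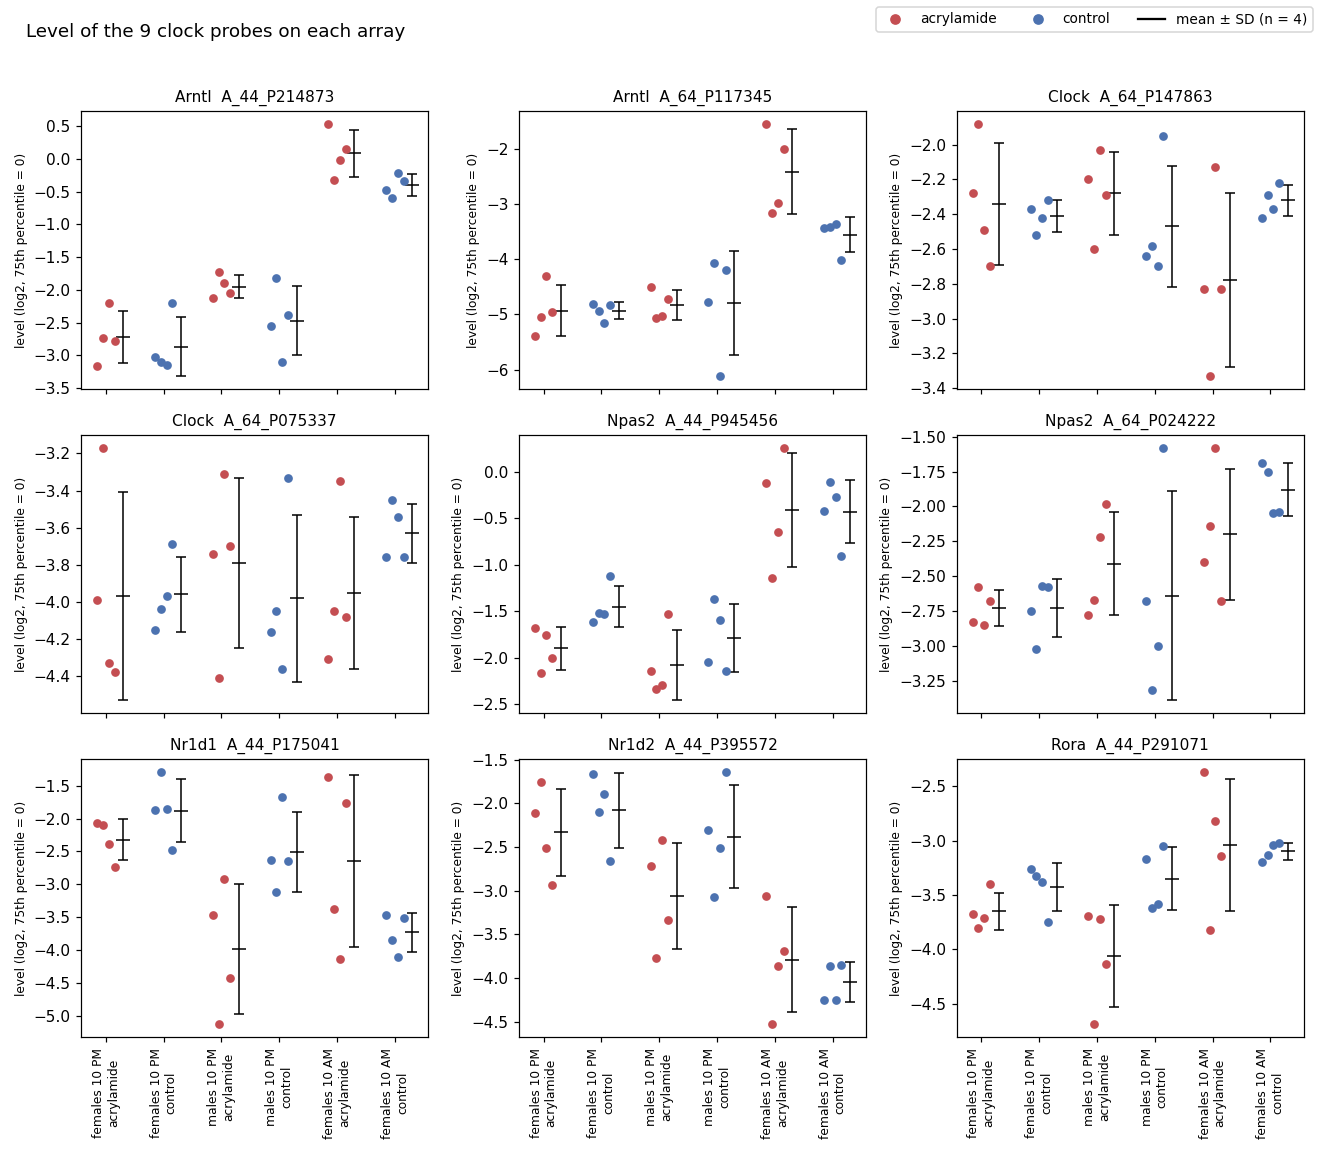
Level of each of the 9 probes on every array (points, log2, with 0 at the array's 75th percentile), with the mean and SD of each group of 4 as black bars. Arntl levels of the female groups at 10 PM lie below those at 10 AM, Nr1d2 levels lie above them, and the acrylamide females at 10 AM are split on Nr1d1 between -4.13 and -1.36.

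Night was set against morning in females, separately within acrylamide and control animals. In both, Arntl was lower and Nr1d2 was higher at 10 PM than at 10 AM, and Npas2 was lower on A_44_P945456. Its second probe was lower at night in control females. Nr1d1 was higher at 10 PM in control females and did not pass the test in acrylamide females. Clock passed in neither. Of the 9 probes, 5 passed in acrylamide females, where 54.7% of all probes passed, and 6 passed in control females, where 47.6% did. In acrylamide females 1 was higher and 4 were lower, against 27.2% and 27.5% of all probes. In control females 2 were higher and 4 were lower, against 21.0% and 26.6%. With so much of the array past the threshold, these counts do not set the members apart.

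**Figure D2:**
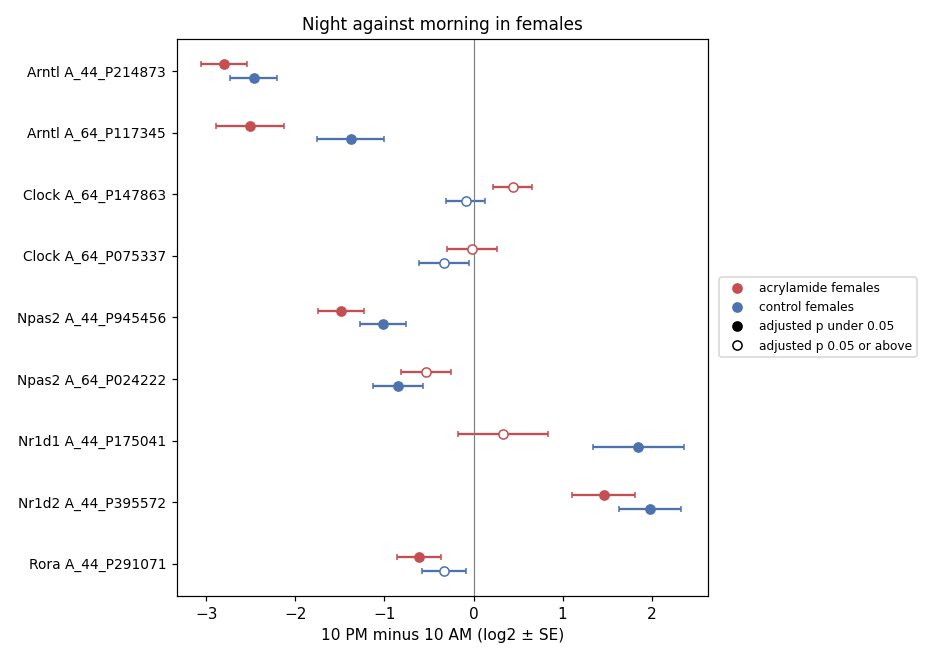
Difference between 10 PM and 10 AM (horizontal axis, log2, with SE bars) for the 9 probes in acrylamide females and in control females, with filled points at an adjusted p under 0.05. Both Arntl probes lie left of 0 and Nr1d2 lies right of 0 in both, while Nr1d1 is at 0.33 in acrylamide females and 1.85 in control females.

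Both time comparisons carry the same limit. All night arrays carry scan code 1 and all morning arrays scan code 2, on other slides. The scanner's saturation value was 778978 or 779039 on night arrays and 65496 or 65497 on morning arrays. Night arrays had 0 saturated spots, against 188 to 469 on morning arrays. The 75th percentile before scaling was 9.77 to 10.8 (log2) at night and 8.59 to 9.7 in the morning. Collection time and these batches cannot be told apart. In whole glands, fewer cells of a type and less RNA per cell cannot be told apart either. Cell type markers separated the same arrays. In each treatment 4 of the 11 marker lists did not overlap, and 2 of them, cartilage and parathyroid, did so in both. In acrylamide females thyroid follicular markers read 2.56 to 3.03 at 10 PM, against -3.33 to 2.32 at 10 AM. C cell markers there read 3.37 to 4.05, against -2.86 to 2.96. In control females the T cell list was lower at 10 PM and the macrophage list higher. The mean level of the 6 cartilage markers tested of 7 listed was -5.47 to -5.01 in acrylamide females and -5.18 to -4.80 in control females at 10 PM, against -3.27 to -0.50 and -4.08 to -0.73 at 10 AM. The mean of the 3 parathyroid markers was 3.35 to 4.08 in acrylamide females and 3.68 to 4.14 in control females at 10 PM, against -5.28 to 2.84 and -0.72 to 2.49 at 10 AM. The part of all these markers in the time differences was not tested. Of the probes that passed, 49.7% were higher at night in acrylamide females and 44.1% in control females, shares that became 61.4% and 59.4% when arrays were scaled to their median and 35.4% and 27.6% with another background correction (normexp).

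Arntl encodes BMAL1, the partner that CLOCK and NPAS2 both need. On A_44_P214873 the acrylamide females read -3.17, -2.73, -2.20 and -2.78 at 10 PM, against 0.54, -0.32, -0.01 and 0.15 at 10 AM. The control females read -3.03, -3.10, -3.15 and -2.20 at 10 PM, against -0.47, -0.59, -0.21 and -0.33 at 10 AM. Every female night array was thus below every female morning array. The difference was -2.80 (SE 0.26, adjusted p = 1.94e-08) in acrylamide females and -2.47 (SE 0.26, adjusted p = 1.07e-07) in control females, which is 6.99-fold and 5.53-fold lower at night. Over all probes, 3.90% in acrylamide females and 6.12% in control females had a more negative difference.

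The second Arntl probe, A_64_P117345, is dimmer. Acrylamide females read -5.40, -5.05, -4.30 and -4.95 at 10 PM, against -1.54, -3.15, -2.97 and -1.99 at 10 AM. Control females read -4.81, -4.93, -5.16 and -4.83 at 10 PM, against -3.43, -3.41, -3.36 and -4.01 at 10 AM. The night and morning arrays again did not overlap. The difference was -2.51 (SE 0.38, adjusted p = 1.46e-05) in acrylamide females and -1.38 (SE 0.38, adjusted p = 0.00488) in control females. In control females this call was lost with quantile normalization (-0.87, adjusted p = 0.0559).

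Males were collected only at 10 PM here. On A_44_P214873 the group means were -1.95 ± 0.18 in acrylamide males and -2.47 ± 0.53 in control males, next to -2.72 ± 0.40 in acrylamide females and -2.87 ± 0.45 in control females at 10 PM and 0.09 ± 0.36 in acrylamide females and -0.40 ± 0.17 in control females at 10 AM (SD, n = 4 each). The 4 acrylamide males, at -2.13 to -1.72, lay above all 8 female night arrays, the highest of which read -2.20, and below all female morning arrays. Acrylamide males were not tested against acrylamide females. Among neighbouring means, control males did not differ past the threshold from control females at 10 PM, nor acrylamide females from control females at 10 AM.

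Clock encodes the partner of BMAL1, and its transcript is known to cycle weakly in many tissues. On A_64_P147863 acrylamide females read -2.28, -1.88, -2.49 and -2.70 at 10 PM, against -2.83, -3.33, -2.13 and -2.83 at 10 AM. Control females read -2.37, -2.52, -2.42 and -2.32 at 10 PM, against -2.42, -2.29, -2.37 and -2.22 at 10 AM. Night and morning overlapped in both. The difference was 0.44 (SE 0.22, adjusted p = 0.0894) in acrylamide females and -0.09 (SE 0.22, adjusted p = 0.777) in control females. In acrylamide females it was positive in all 23 alternatives, from 0.05 to 0.68. It passed in 5 of them, for example with arrays scaled to their median (0.68, adjusted p = 0.0044). In control females median scaling gave 0.18, so that its sign there depends on the scaling.

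A_64_P075337, the other Clock probe, read from -4.38 to -3.17 in acrylamide females at 10 PM, against -4.31 to -3.35 at 10 AM. In control females it read from -4.15 to -3.69 at 10 PM, against -3.76 to -3.45 at 10 AM. Its differences were -0.02 (SE 0.28, adjusted p = 0.962) in acrylamide females and -0.33 (SE 0.28, adjusted p = 0.342) in control females. Both turned positive with quantile normalization, at 0.39 and 0.11, and both passed as lower with normexp background, at -0.48 and -0.79. The 6 group means of this probe lay within -3.98 ± 0.45 in control males and -3.63 ± 0.16 in control females at 10 AM (SD, n = 4).

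Npas2 encodes a relative of CLOCK that can take its place beside BMAL1. On A_44_P945456 acrylamide females read -1.68, -2.17, -1.76 and -2.01 at 10 PM, against -0.12, -1.14, -0.65 and 0.26 at 10 AM. Control females read -1.62, -1.52, -1.53 and -1.12 at 10 PM, against -0.42, -0.11, -0.27 and -0.91 at 10 AM. Within each treatment all 4 night arrays lay below all 4 morning arrays. The difference was -1.49 (SE 0.26, adjusted p = 8.93e-05) in acrylamide females and -1.02 (SE 0.26, adjusted p = 0.0032) in control females, or 2.81-fold and 2.03-fold lower at night. With morning arrays of slide 4 only, where control females have 1 array, the difference in control females was -0.54.

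The second Npas2 probe, A_64_P024222, gave smaller differences. It read from -2.85 to -2.58 in acrylamide females at 10 PM, against -2.68 to -1.58 at 10 AM, which overlap, and from -3.02 to -2.57 in control females at 10 PM, against -2.05 to -1.69 at 10 AM, which do not. The difference was -0.53 (SE 0.28, adjusted p = 0.117) in acrylamide females and -0.85 (SE 0.28, adjusted p = 0.0182) in control females. The call in control females was lost with median scaling (-0.58, adjusted p = 0.0682) and without control females at 10 PM replicate 2 (-0.75, adjusted p = 0.0573). The 2 Npas2 probes had a Pearson r of -0.35 over the 16 night arrays and -0.41 over the 8 morning arrays. For the 2 probes of Clock r was 0.94 and 0.79, and for those of Arntl 0.56 and 0.89.

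Nr1d1 encodes REV-ERB alpha, a heme-binding repressor. Acrylamide females read -2.07, -2.09, -2.39 and -2.74 at 10 PM, against -1.36, -3.37, -4.13 and -1.76 at 10 AM. Control females read -1.87, -1.29, -1.86 and -2.48 at 10 PM, against -3.46, -3.84, -4.11 and -3.51 at 10 AM. The control arrays separated by time, while in acrylamide females morning replicates 1 and 4 read above every night array of their treatment and replicates 2 and 3 read below them. The difference was 0.33 (SE 0.51, adjusted p = 0.603) in acrylamide females and 1.85 (SE 0.51, adjusted p = 0.00495) in control females, a 3.61-fold rise at night in control females.

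Whether the Nr1d1 time difference itself differed between treatments was tested directly. It was 1.53 units smaller in acrylamide females than in control females (difference of differences -1.53, SE 0.72), and this did not pass (adjusted p = 0.309). The 2 high morning arrays of acrylamide females lie on slide 4 and the 2 low ones on slide 3. A split by slide was made after these values were seen, so it is no test of them. With morning arrays of slide 3 only, the time difference in acrylamide females was 1.42, and with those of slide 4 only it was -0.77. In control females, which had 3 arrays on slide 3 and 1 on slide 4, it was 1.93 and 1.63. With normexp background the values were -0.05 in acrylamide females and 0.87 in control females.

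Nr1d2 encodes REV-ERB beta, the second repressor of the pair. Acrylamide females read -2.11, -1.76, -2.51 and -2.93 at 10 PM, against -3.06, -4.53, -3.86 and -3.69 at 10 AM. Control females read -1.66, -2.10, -1.89 and -2.66 at 10 PM, against -4.25, -3.86, -4.25 and -3.85 at 10 AM. All night arrays of females lay above all their morning arrays, which for Nr1d1 held only in control females. The difference was 1.46 (SE 0.35, adjusted p = 0.00144) in acrylamide females and 1.98 (SE 0.35, adjusted p = 8.38e-05) in control females, or 2.75-fold and 3.93-fold higher at night. Only 0.64 and 0.79 remained with normexp background, both past the threshold. The call in acrylamide females was lost with morning arrays of slide 4 only (1.05, adjusted p = 0.0616). Among all probes, 95.4% in acrylamide females and 99.3% in control females had a smaller difference. In acrylamide females at 10 AM, replicates 1 and 4 on slide 4 again read above replicates 2 and 3 on slide 3. Both Arntl probes and A_44_P945456 of Npas2 had this order too. A_64_P024222 of Npas2 and A_64_P075337 of Clock had the reverse order, and Rora and A_64_P147863 of Clock had neither.

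Rora encodes a receptor that activates through the elements at which REV-ERB proteins repress. It read -3.68, -3.80, -3.71 and -3.40 in acrylamide females at 10 PM, against -2.37, -3.82, -2.82 and -3.14 at 10 AM. It read -3.26, -3.33, -3.38 and -3.75 in control females at 10 PM, against -3.20, -3.13, -3.04 and -3.02 at 10 AM. The acrylamide arrays overlapped and the control arrays did not. The difference was -0.61 (SE 0.25, adjusted p = 0.0427) in acrylamide females and -0.33 (SE 0.25, adjusted p = 0.284) in control females. The call in acrylamide females was close to the threshold and was lost in 13 of 23 alternatives, for example without morning replicate 1 (-0.39, adjusted p = 0.182). In control females quantile normalization gave 0.01.

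Counted by arrays, 4 of the 9 probes did not overlap between night and morning in acrylamide females, against 44.5% of all probes, and 7 did not in control females, against 56.6%. Control females have 1 morning array on slide 4, so only sizes are given with the morning arrays of that slide alone. They were -2.54 for A_44_P214873 of Arntl, -0.92 for A_64_P117345 of Arntl, -0.69 for A_64_P024222 of Npas2 and 1.77 for Nr1d2. Those of Nr1d1 and A_44_P945456 of Npas2 are given above. The median difference of the 9 probes was -0.53 in acrylamide females and -0.33 in control females, beside 0.05 and 0.03 over all probes. Without regard to sign, the median size was 0.61 and 1.02, beside 0.69 and 0.58 over all probes.

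The other parts of the clock were read from a list of 25 genes, of which 23 were tested. In acrylamide females 8 passed as higher at night, 6 as lower and 9 did not pass. In control females 9 passed as higher, 3 as lower and 11 did not pass. Of all probes 54.7% passed in acrylamide females and 47.6% in control females, so these counts do not set the list apart. Among genes past the threshold the PAR bZIP factors, which carry the clock's output, stood high: Dbp differed by 2.88 in acrylamide females and 3.12 in control females (SE 0.20), and Tef by 2.34 and 3.14 (SE 0.23). Per2, a repressor of the CLOCK and BMAL1 pair, differed by 2.43 and 2.12, and Wee1, a cell cycle kinase driven by the clock, by 1.82 and 1.76. Arntl2, the paralogue of Arntl, was lower at night by 2.23 in acrylamide females (difference -2.23) and by 2.64 in control females (difference -2.64). Per1 was lower too, at -2.05 and -1.37.

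Hlf, the third PAR bZIP factor, differed by 2.25 (SE 0.32, adjusted p = 8.88e-06) in acrylamide females and 0.62 (SE 0.32, adjusted p = 0.122) in control females. It was well above background on all night arrays but on only 1 of 4 morning arrays in acrylamide females and 3 of 4 in control females. Ciart, a repressor of the CLOCK and BMAL1 pair, passed as higher at night in acrylamide females (adjusted p = 0.0458) and control females (adjusted p = 0.0317). It was well above background on 3 of 4 night arrays and 0 of 4 morning arrays in each treatment, so no fold is given.

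**Figure D3:**
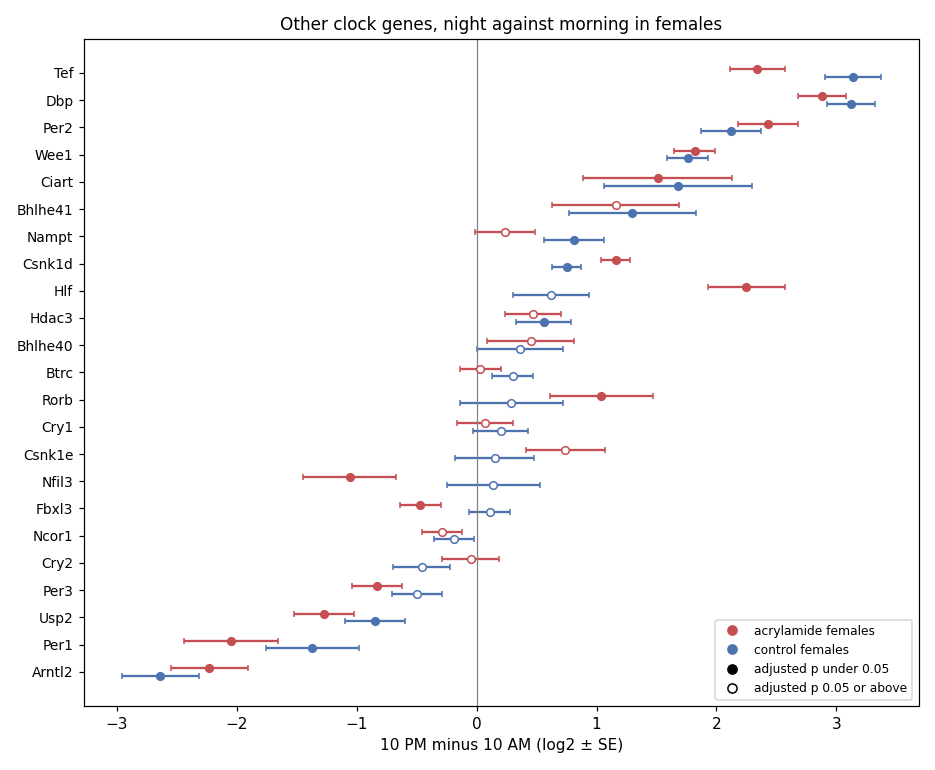
Difference between 10 PM and 10 AM (horizontal axis, log2, with SE bars) for 23 other clock genes in acrylamide females and in control females, filled where the adjusted p is under 0.05. Tef, Dbp, Per2 and Wee1 lie furthest to the right in control females and Arntl2 and Per1 furthest to the left. Ciart and Rorb were well above background on only 8 and 6 of the 24 arrays, so their points rest on dim signals.

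The study's main question was what acrylamide changes. In females at 10 PM none of the 9 clock probes passed the limma test, and none did at an unadjusted p under 0.05, where 1.77% of all probes did. No probe of the array passed after adjustment (0.0%). The differences of the 9 lay between -0.46 for A_44_P945456 of Npas2 (SE 0.26) and 0.15 for A_44_P214873 of Arntl (SE 0.26), all with an adjusted p of 1. A_44_P945456 was also the only member probe whose arrays did not overlap, at -2.17 to -1.68 in acrylamide females against -1.62 to -1.12 in control females. Such separation holds for 5.33% of all probes. The other Npas2 probe, A_64_P024222, differed by -0.01 (SE 0.28) and its arrays overlapped. Nr1d1 differed by -0.45 (SE 0.51), Nr1d2 by -0.25 (SE 0.35) and Rora by -0.22 (SE 0.25). On both night slides all controls lie in row 1 and all acrylamide arrays in row 2, so treatment and array row cannot be told apart at night.

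In males at 10 PM, Nr1d1 and Rora had the largest differences and neither passed. Nr1d1 read -3.46, -5.13, -2.92 and -4.43 in acrylamide males, against -2.63, -3.11, -1.67 and -2.64 in control males. All acrylamide arrays but replicate 3 lie below every control. The difference was -1.47 (SE 0.51, unadjusted p = 0.00889 in limma), with an adjusted p of 0.352. Of all probes, 1.63% had a more negative difference.

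Rora read -3.69, -4.69, -3.72 and -4.14 in acrylamide males, against -3.17, -3.62, -3.58 and -3.05 in control males. The groups did not overlap, which holds for 4.34% of all probes. The difference was -0.71 (SE 0.25, adjusted p = 0.352). Nr1d2 read -2.72, -3.77, -2.42 and -3.34 in acrylamide males, against -2.31, -3.07, -2.51 and -1.64 in control males, and differed by -0.68 (SE 0.35, adjusted p = 0.376). Acrylamide replicates 2 and 4 were the lowest of their group on all 3 of these receptors.

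Arntl, on A_44_P214873, went the other way without passing. It read -2.13, -1.72, -1.90 and -2.05 in acrylamide males, against -2.56, -1.82, -3.10 and -2.39 in control males, a difference of 0.52 (SE 0.26, adjusted p = 0.373). Its second probe differed by -0.04 (SE 0.38), and the Clock and Npas2 probes by -0.29 to 0.23. In all, 0 of the 9 probes passed in limma, as did 0.0% of all probes, and 2 of the 9 had an unadjusted p under 0.05, against 13.7% of all probes.

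Markers of other tissues moved among the male arrays too. The mean level of the 10 skeletal muscle markers was 7.42, 1.58, 6.71 and 5.38 in acrylamide males replicates 1 to 4, against 6.72 to 7.88 in control males, so replicates 2 and 4, which were lowest on Nr1d1, were also lowest on muscle. The mean of the 6 pituitary markers tested of 7 listed was -2.87 to 0.53 in acrylamide males, against -5.40 to -4.13 in control males. Their part in the Nr1d1 and Rora values was not tested. Without acrylamide males replicate 4 and the morning array with low thyroid markers, 0 of the 9 probes passed in males as well.

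**Figure D4:**
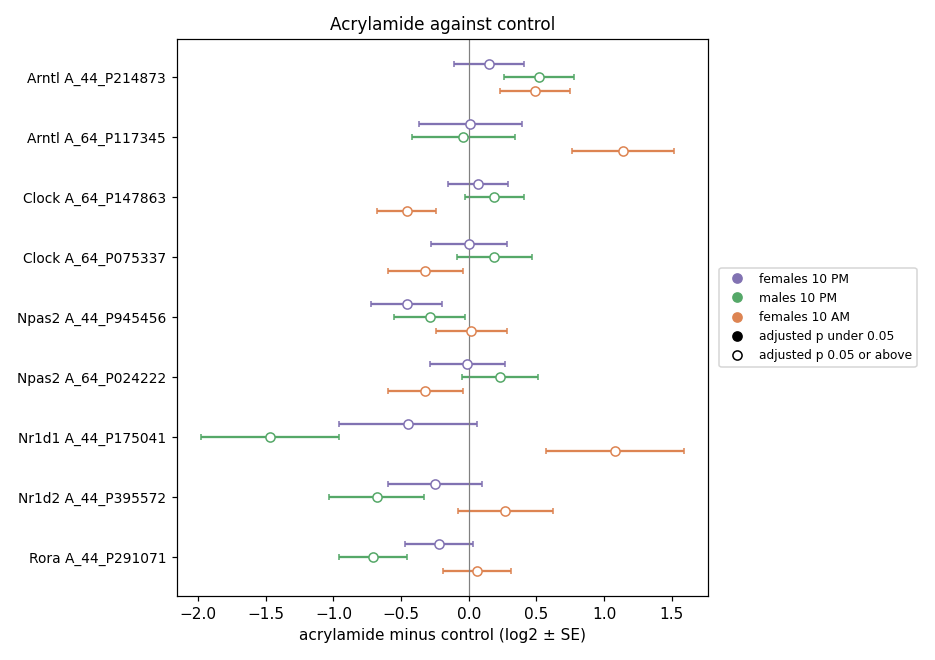
Difference between acrylamide and control (horizontal axis, log2, with SE bars) for the 9 probes in females at 10 PM, males at 10 PM and females at 10 AM. All points are open, since no adjusted p was under 0.05. Nr1d1 runs from -1.47 in males at 10 PM to 1.08 in females at 10 AM.

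In females at 10 AM again 0 of the 9 probes passed, where 1.83% of all probes did. The largest difference was on A_64_P117345 of Arntl, at 1.14 (SE 0.38, adjusted p = 0.0939), with all acrylamide arrays from -3.15 to -1.54 above the control arrays from -4.01 to -3.36. Such separation holds for 8.47% of all probes. A_64_P117345 passed with quantile normalization (1.31, adjusted p = 0.0487) and with array row as a term (1.31, adjusted p = 0.0346). The other Arntl probe differed by 0.49 (SE 0.26, adjusted p = 0.249).

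Nr1d1 averaged -2.65 ± 1.31 in acrylamide females and -3.73 ± 0.30 in control females at 10 AM (SD, n = 4 each), a difference of 1.08 (SE 0.51, adjusted p = 0.207). A_64_P147863 of Clock averaged -2.78 ± 0.50 in acrylamide females and -2.32 ± 0.09 in control females, a difference of -0.46 (SE 0.22, adjusted p = 0.208). In both cases the spread of the acrylamide group was several times that of the controls. Together 3 of the 9 had an unadjusted p under 0.05, against 23.4% of all probes.

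These glands lay on 2 slides that held both treatments, so the difference can be given within each. On slide 3, with 2 acrylamide and 3 control arrays, Nr1d1 differed by 0.05 and A_64_P117345 of Arntl by 0.34. On slide 4, with 2 acrylamide arrays and 1 control array, they differed by 1.95 and 2.25. A_44_P945456 of Npas2 differed by -0.62 on slide 3 and 0.98 on slide 4, and Rora by -0.20 and 0.26. Both slides gave the same sign for Nr1d1, both Arntl probes, both Clock probes and A_64_P024222 of Npas2, and the sizes on Nr1d1 and A_64_P117345 rest on slide 4. No test was made within slides.

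One of those 2 acrylamide arrays on slide 4 is replicate 1, with low thyroid markers, and the other is replicate 4, whose thyroid level of 2.32 was within the control range of 2.22 to 2.70. Both read high on Nr1d1, at -1.36 and -1.76. Replicate 3, which read lowest on Nr1d1, had an oesophageal epithelium level of 2.02, and replicate 2 a T cell level of 0.64, against -3.34 to -2.18 in control females. The part of these markers in the clock values was not tested. Of the 23 other clock genes, 0 passed for acrylamide at night in either sex, where 0.0% of all probes did. At 10 AM 1 passed, Hlf, where 1.83% of all probes did. It was lower at -1.55 (SE 0.32, adjusted p = 0.0307). Hlf was well above background on only 1 of 4 acrylamide and 3 of 4 control arrays there, so this size rests on dim signals.

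Leaving out acrylamide replicate 3 at 10 AM brought 3 of the 9 probes past the threshold, Nr1d1 at 1.57 (adjusted p = 0.0449), A_64_P117345 of Arntl at 1.33 (adjusted p = 0.0434) and A_64_P147863 of Clock at -0.68 (adjusted p = 0.0406), and 2386 of all probes instead of 429. Those counts are the highest among the 8 single arrays left out in turn, which gave 0 to 3 members and 2 to 2386 of all probes. Replicate 3 lies on slide 3.

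The acrylamide difference was also compared between times, between sexes and averaged over the 3 strata. Between night and morning in females, 0 of the 9 probes passed (0.0% of all probes), with Nr1d1 at -1.53 as given above and A_64_P117345 of Arntl at -1.14 (SE 0.53, adjusted p = 0.308). Between males and females at night, 0 passed (0.0%), with differences from -1.02 for Nr1d1 (SE 0.72) to 0.36 for A_44_P214873 of Arntl (SE 0.36), and adjusted p of at least 0.995. Averaged over the 3 strata, 0 passed, against 0.00427% of all probes, and A_44_P214873 of Arntl differed by 0.39 (SE 0.15, adjusted p = 0.689). In limma's unadjusted test at p under 0.05, 2 of the 9 passed between times, 0 between sexes and 1 in the average, where 15.8%, 2.25% and 6.67% of all probes did.

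Control males and control females at 10 PM were compared as a background for the night groups, on different slides. In limma 0 of the 9 probes passed, against 0.00854% of all probes, and 0 had an unadjusted p under 0.05, against 1.61%. The arrays of males and females overlapped on every member, as on all but 3.72% of all probes. The differences lay between -0.64 for Nr1d1 (SE 0.51), at -2.51 ± 0.61 in males and -1.88 ± 0.48 in females, and 0.40 for A_44_P214873 of Arntl (SE 0.26).

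The loop was also read within each array, as the Nr1d1 level minus the Arntl level on A_44_P214873. A constant subtracted from an array cancels in it, and only its change between arrays can be read. Its median was 0.34 in acrylamide females and 1.23 in control females at 10 PM, -1.85 in acrylamide males and -0.16 in control males, and -2.48 in acrylamide females and -3.21 in control females at 10 AM. Female night arrays ranged from -0.20 to 1.09 in acrylamide females and from -0.28 to 1.81 in control females. Morning arrays ranged from -4.12 to -1.89 in acrylamide females and from -3.90 to -2.99 in control females. Night and morning did not overlap on it, but Arntl on A_44_P214873 alone already separates these arrays, so this says nothing of Nr1d1.

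The same difference for Nr1d2 had medians of 0.40 in acrylamide females and 1.13 in control females at 10 PM, and of -3.84 in acrylamide females and -3.64 in control females at 10 AM. In males it ranged from -2.05 to -0.51 with acrylamide and from -1.25 to 0.75 in controls, so these groups overlapped.

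**Figure D5:**
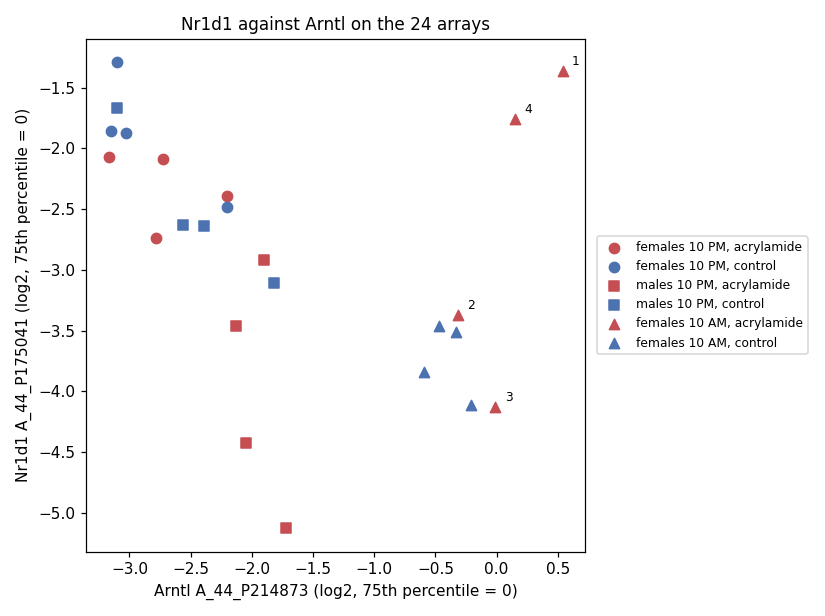
Level of Nr1d1 (vertical axis) against that of Arntl on A_44_P214873 (horizontal axis) on the 24 arrays, both log2 with 0 at the array's 75th percentile. Female night arrays lie upper left, acrylamide males run downward from them to -5.13 on Nr1d1, and among the numbered acrylamide females at 10 AM replicates 1 and 4 lie above the other morning arrays.

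For each gene the 3 genes with the most similar pattern over the 16 night arrays were looked up among 14194 others, by Pearson r, as a description of arrays that share groups and slides. For Nr1d1 they were Jdp2 (r = 0.924), Tcp11l2 (r = 0.915) and Ralgds (r = 0.905), and over the 8 morning arrays r was 0.562, 0.921 and 0.746. For Nr1d2 they were Atp13a3, Slc38a9 and Serinc1 at 0.952, 0.923 and 0.922, with 0.321, -0.144 and 0.873 in the morning. Those of Rora included Epm2a (0.934) and Dlgap4 (0.930), and Clock was nearest to Hipk4 (0.930), Fbxo42 (0.906) and Prkacb (0.906). For Arntl the nearest were Mrps34 (0.856), Slc25a25 (0.850) and Ppp1r14b (0.833), and for Npas2 they were Tcf3 (0.863), Pcbp2 (0.779) and Fras1 (0.774). Over the 8 morning arrays r was -0.449, 0.571 and 0.146 for the genes of Arntl, -0.686, -0.301 and -0.28 for those of Npas2, 0.605, 0.548 and 0.826 for those of Clock, and 0.516 and 0.529 for Epm2a and Dlgap4.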

How the data were processed

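The scanner software was Agilent Feature Extraction, version 10.1.1.1 per the file headers. The processed signal used here is its linear intensity for a spot, with background already removed. The deposited series matrix holds log2 values that equal log2 of this intensity minus a constant per array. It served as an alternative. Uneven and outlier spots were left out, which left 45 empty values among 30367 probes, replicate spots were averaged as log2, and each array's 75th percentile was subtracted. A probe was kept when well above background on at least 3 of 4 arrays of a group. Group means were fitted on all 24 arrays with limma 3.58.1 in R 4.3.3 (18 residual degrees of freedom), 2-sided, with Benjamini-Hochberg adjustment over 23416 probes and a threshold of 0.05. Errors are the model's SE for differences and the SD for groups. For each probe the SE rests on 1 spread shared by all 6 groups, and does not follow the SDs of the groups compared. With the arrays of control females alone, the SE of the Nr1d1 time difference was 0.25 instead of 0.51. The code was tested on simulated data.

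Every member probe is named. Of other clock genes, those named are among the 6 largest past the threshold in at least 1 comparison, each by its brightest probe, and both time comparisons are given for them. The members, lists and tests were chosen with earlier results of these data known. Names came from RefSeq by accession (18005 probes), symbol (2671) or synonym (557), and 9134 kept the array's name. All 9 member probes had the same name and sequence in both array annotations. Alternatives covered background, scaling, the dim-probe filter, probe choice, weights, slide, row, replicate block and each array left out. The number of arrays, 4 per group, limits the precision. Deviations of same-numbered arrays correlated at -0.237 to 0.437 over 60 pairs, 17 of them over 0.1, so the numbers were not taken to pair arrays. Python 3.11.15 was used for the other steps. One gene among those of similar pattern is not reported here.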

Additional observations from a re-analysis of the deposited data

Results flagged for a closer look

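Each of the 9 probes was examined in each of the 6 groups for an array far from its group, which made 54 groups of 4. In 3 of them the gap from the most extreme array to its nearest neighbour took more of the group's range than Dixon's critical value for 4 samples allows, and chance alone gives about 1 such group in 20. Arntl on A_44_P214873 read -2.20 in control females at 10 PM replicate 4, where the others read -3.15 to -3.03. Arntl on A_64_P117345 read -4.01 in control females at 10 AM replicate 4, where the others read -3.43 to -3.36. Clock on A_64_P147863 read -1.95 in control males replicate 4, where the others read -2.70 to -2.58.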

How the results depend on the processing

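Over 2043 refits of member differences, 99 changed sign. Each of those was below the threshold both ways, and its main size was at most 0.33. Of the called differences none changed sign, and 22 refits lost a call while 17 gained one. Rora in acrylamide females lost its time call in 13 of 23 alternatives, and Nr1d2 in acrylamide females kept its own except with morning slide 4 only (1.05, adjusted p = 0.0616). Each array's median as the scale moved the median time difference of all probes to 0.29 in acrylamide females and 0.30 in control females, from 0.05 and 0.03, and normexp moved it to -0.20 and -0.28.

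In control females morning slide 4 holds 1 array, so no count of members past the threshold by time is given for it. At 10 AM the count of members for acrylamide was 1 with quantile normalization and 1 with array row as a term, and 0 to 3 over arrays left out. Counts over all probes moved more. At 10 AM, 429 probes passed for acrylamide, but 18 with median scaling or the series matrix, 1059 with quantile normalization, 180 with the percentile of probes bright on all arrays, 218 with normexp, 111 with no filter, 0 with those arrays alone, 4 with array weights, 94 with slide and 2537 with row as a term, and 37 without acrylamide females at 10 AM replicate 1 and acrylamide males replicate 4. Leaving out single arrays gave 2 to 2386. In males, in place of 0, it was 2 with median scaling, the series matrix, array weights or the replicate block, 3 with normexp and 1 with no filter, and 0 to 8 over arrays left out. For the mean over strata, in place of 1, it was 0 with median scaling, the series matrix, a slide term or both arrays left out, 3 with normexp, 6 with weights, 2 with the replicate block, and 0 to 30 over arrays left out. Between the sexes in controls, in place of 2, it was 1 with quantile normalization, 0 with normexp or only probes bright on all 24 arrays, 27 with weights and 0 to 3 over arrays left out. For the acrylamide difference by time, single arrays left out gave 0 to 264.

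Sign changes of member differences by time were as follows. In control females quantile normalization gave Rora 0.01, A_64_P075337 of Clock 0.11 and A_64_P147863 of Clock 0.06, which was 0.18 with median scaling or the series matrix. In acrylamide females Nr1d1 was -0.05 with normexp and -0.77 with morning slide 4 only, and -0.16 to 0.76 over arrays left out. A_64_P075337 of Clock was 0.22 with median scaling or the series matrix, 0.39 with quantile normalization and 0.23 with slide 4 only, and -0.28 to 0.18 over arrays left out.

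Sign changes of the acrylamide difference in females at 10 PM were 0.00 (median, series matrix) and 0.01 (normexp) for A_64_P024222 of Npas2, 0.00 (median, series matrix) and 0.01 (quantile) for A_64_P075337 of Clock, and -0.01 (normexp) for A_64_P117345 of Arntl. Arrays left out gave -0.10 to 0.05, -0.27 to 0.13 and -0.20 to 0.16 for these, -0.02 to 0.38 for A_44_P214873 of Arntl and -0.08 to 0.19 for A_64_P147863 of Clock. In males A_64_P117345 of Arntl was 0.13 (median, series matrix), 0.11 (quantile), 0.02 (normexp) and 0.05 (weights), and -0.49 to 0.20 over arrays left out. In females at 10 AM Rora was -0.07 (normexp), -0.09 (weights), -0.03 (slide term) and -0.16 (both arrays out), and -0.16 to 0.32 over arrays left out. Nr1d2 was -0.07 with normexp. A_44_P945456 of Npas2 was -0.02 (normexp), -0.25 (weights), -0.05 (slide term) and -0.08 (both arrays out), and -0.21 to 0.26 over arrays left out.

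In the mean over strata A_64_P024222 of Npas2 was 0.04 (median, series matrix) and 0.01 (slide term), and -0.11 to 0.09 over arrays left out. A_64_P075337 of Clock was 0.03 (median, quantile) and 0.02 (series matrix, weights), and -0.13 to 0.03 over arrays left out, and A_64_P147863 of Clock was 0.00 (median, series matrix). Between sexes in the acrylamide difference A_44_P945456 of Npas2 was -0.02 with both arrays out and -0.02 to 0.31 over arrays left out. A_64_P117345 of Arntl was 0.12 (median, series matrix), 0.10 (quantile) and 0.03 (normexp), and -0.49 to 0.20, and A_64_P147863 of Clock was -0.01 to 0.29. Between control males and females A_64_P024222 of Npas2 was -0.01 (weights) and -0.27 to 0.31 over arrays left out, A_64_P075337 of Clock 0.06 (normexp) and -0.23 to 0.11, Rora -0.03 to 0.17, A_64_P117345 of Arntl -0.10 to 0.59 and A_64_P147863 of Clock -0.23 to 0.02. The cause of these changes was not tested.

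With the replicate number as a block the counts of members past the threshold did not change, and all probes past it by time were 12758 in acrylamide females and 10926 in control females, against 12811 and 11138 without it. Of 60 pairs of same-numbered arrays 19 matched best with their own number. All time differences stay bound to slide and scan, and 4 arrays per group limit what could be detected.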
